A study of Homo sapiens with 8 samples.

Results

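NEDD4L, FBXL15 and ZRANB1 are 3 genes of the ubiquitin system. They were taken from lists of RNA regions recovered with eIF4G2 by every region that lay inside, or overlapped the start or end of, an annotated transcript of the gene. The rule found 19 regions, all of them in the list of cells overexpressing eIF4G2 (the eIF4G2 list below): 15 over NEDD4L, 1 over FBXL15 and 3 over ZRANB1. That list holds 1986 regions in all. The list of cells with the scramble control vector (the scramble list) holds 1224 regions, and 0 of them lie over a member. Of these 1224, 1185 lie on chromosome 4, which holds no member. On the chromosomes of the members the scramble list has 29 regions (chromosome 10) and 0 regions (chromosome 18). The genes were chosen because they were listed, so their presence in 1 list and not in the other is a description and has no test.

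The RNA came from IHCF cells, cardiac fibroblasts of human origin that were immortalized and kept as a line, grown with insulin and serum. The groups are eIF4G2-bound RNA and total RNA of cells infected with a lentivirus for full-length eIF4G2, and eIF4G2-bound RNA and total RNA of cells infected with a scramble control lentivirus, with 2 libraries each and 8 in all. The same eIF4G2 antibody is named for every library, and neither the promoter of the vector nor the time after infection is given. eIF4G2 is a translation initiation factor related to the scaffold eIF4G that lacks its site for the cap-binding protein, and the title of the series asks which pro-fibrotic mRNAs depend on it.

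Ubiquitin is a small protein that is attached to other proteins by a relay of activating, conjugating and ligating enzymes and removed by deubiquitinases; chains of it mark proteins for the proteasome or change their activity. NEDD4L is a ligase of the HECT type, which carries ubiquitin on its own catalytic cysteine. It limits sodium channels at the cell surface and, in TGF-beta signalling, marks activated SMAD2 and SMAD3 for degradation. FBXL15 is not an enzyme itself but an F-box protein, the part of an SCF ligase that holds the substrate; a known substrate is SMURF1, a ligase that restrains BMP signalling. ZRANB1, also called TRABID, is a deubiquitinase of the OTU family that prefers atypical chains and has been placed in the Wnt pathway. The TGF-beta, BMP and Wnt pathways all act in the activation of fibroblasts.

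The authors' deposited tables hold the positions on GRCh38, widths and nearby transcripts of the regions as they called them, and leave out read counts, scores, p-values, the strand of a region and anything measured per replicate. Which table belongs to which condition is known from the names of the tables alone. Both names also hold the name of MOV10, a protein no label mentions. That the regions were recovered with eIF4G2 therefore rests on the sample labels. The depth behind a region is unknown, and the lists cannot be compared with a replicate error. A region marks RNA that passed the caller's threshold, and a gene without one is not shown to be unbound; a change in binding and a change in the amount of the mRNA cannot be told apart. Region counts differ widely between chromosomes: chromosome 18 has 1339 regions in the eIF4G2 list and 0 in the scramble list, and chromosome 10 has 121 regions in the eIF4G2 list and 29 in the scramble list. Chromosome 4, which holds no member, has 491 regions in the eIF4G2 list and 1185 in the scramble list. EIF4G2 itself lies on chromosome 11, which has no region in either list, so its overexpression was not checkable. Of 12 fibroblast markers 2 lie on the chromosomes with most regions (PDGFRA and VIM), and neither has a region in either list, so the cell type could not be checked either.

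The promoter windows of members are shown because they mark annotated starts, inside the genes, at which no region was found. RefSeq (GRCh38.p14) gave 5 windows for NEDD4L and 1 for ZRANB1. No region of the eIF4G2 list lay over any of the 6. They leave out the first base of each gene: the starts they mark lie 3000 bp or more into NEDD4L and 25229 bp into ZRANB1, and the first base of NEDD4L, which has no window, lies under a region. The first NEDD4L window begins 405 bases past the end of a group of 5 regions, the nearest any of them comes; the ZRANB1 window lies 42.6 kb before the first region of that gene. The 250 bases upstream of each start follow, on the plus strand, at chr18:58046976-58047225 and chr10:124941873-124942122, with each CG dinucleotide in capitals.
NEDD4L: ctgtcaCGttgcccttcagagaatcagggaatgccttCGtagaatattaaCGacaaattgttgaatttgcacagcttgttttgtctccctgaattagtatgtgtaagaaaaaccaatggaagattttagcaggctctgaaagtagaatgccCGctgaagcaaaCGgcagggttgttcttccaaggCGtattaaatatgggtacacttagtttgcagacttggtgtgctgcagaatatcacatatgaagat
ZRANB1: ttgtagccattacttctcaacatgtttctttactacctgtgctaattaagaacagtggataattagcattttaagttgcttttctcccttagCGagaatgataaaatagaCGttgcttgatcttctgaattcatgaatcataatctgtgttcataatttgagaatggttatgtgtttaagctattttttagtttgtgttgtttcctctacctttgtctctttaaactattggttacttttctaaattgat
The NEDD4L stretch holds 6 CG dinucleotides, and 49.5% of the 721 windows of chromosome 18 hold as few or fewer in the same 250 bases. The ZRANB1 stretch holds 2, and 23.6% of the 1680 windows of chromosome 10 hold as few or fewer. CG, which reads the same on both strands, occurs at least once in 92.6% of the windows of chromosome 18 and 94.2% of those of chromosome 10. Among the 208 windows of coding genes of chromosome 18 with a region in the eIF4G2 list, 37 (17.8%) had a region over them. No such share is given here for chromosome 10, so no background stands beside the ZRANB1 window.

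NEDD4L (ENSG00000049759) spans 357315 bp of the plus strand of chromosome 18, from 58044226 to 58401540. Its 15 regions in the eIF4G2 list summed to 8825 bp, against 0 regions in the scramble list. On the same chromosome 60.0% of protein-coding genes (162 of 270) had a region in the eIF4G2 list and 0 in the scramble list. Whether NEDD4L differs between the conditions cannot be told apart from the absence of the whole chromosome from the scramble list. Within the gene, 8380 bp lay under regions, 2.35% of its length.

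The regions of NEDD4L sat at both ends of the gene. A group of 5 regions lay in a stretch of 2375 bp at the start, at chr18:58044196-58044725 (530 bp), chr18:58044841-58045270 (430 bp), chr18:58045486-58045700 (215 bp), chr18:58045751-58045955 (205 bp) and chr18:58046161-58046570 (410 bp). The first of them begins 30 bp before the annotated start of the gene. The next 293465 bp, 82.1% of the gene, held no region. The other 10 regions, with 7035 of the 8825 bp, lay in the last 61505 bp.

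The table annotates 47 transcripts of NEDD4L, and their starts and ends show what the regions covered. The 5 regions at the start lay over the first base of 17 transcripts. A further 16 transcripts start in the stretch with no region, and 8 transcripts end there. The starts marked by all 5 promoter windows lie in that stretch too. The tables give transcript spans and no exons, so exonic and intronic regions were not separated.

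In the last part of NEDD4L, a pair of narrow regions at chr18:58340036-58340250 and chr18:58340336-58340540 came first, 85 bp apart. They were followed by a region of 850 bp at chr18:58372726-58373575, which overlaps the starts of 3 transcripts and the end of 1. Then 5 regions of 205 to 275 bp lay between 58383181 and 58391585. The widest region of the gene, 3710 bp at chr18:58396096-58399805, lay over the ends of 31 transcripts. The last, 940 bp at chr18:58401016-58401955, lay over the ends of the other 4 transcripts that reach furthest and ran 415 bp past the gene. These last regions, 1210 bp apart, made up 52.7% of the summed width. The widest one also overlaps 1143 bp of an unnamed gene on the minus strand (ENSG00000267396, 58398663 to 58400082), and without strand that stretch cannot be given to 1 of them. The other 14 regions lay over no other gene.

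**Figure D1:**
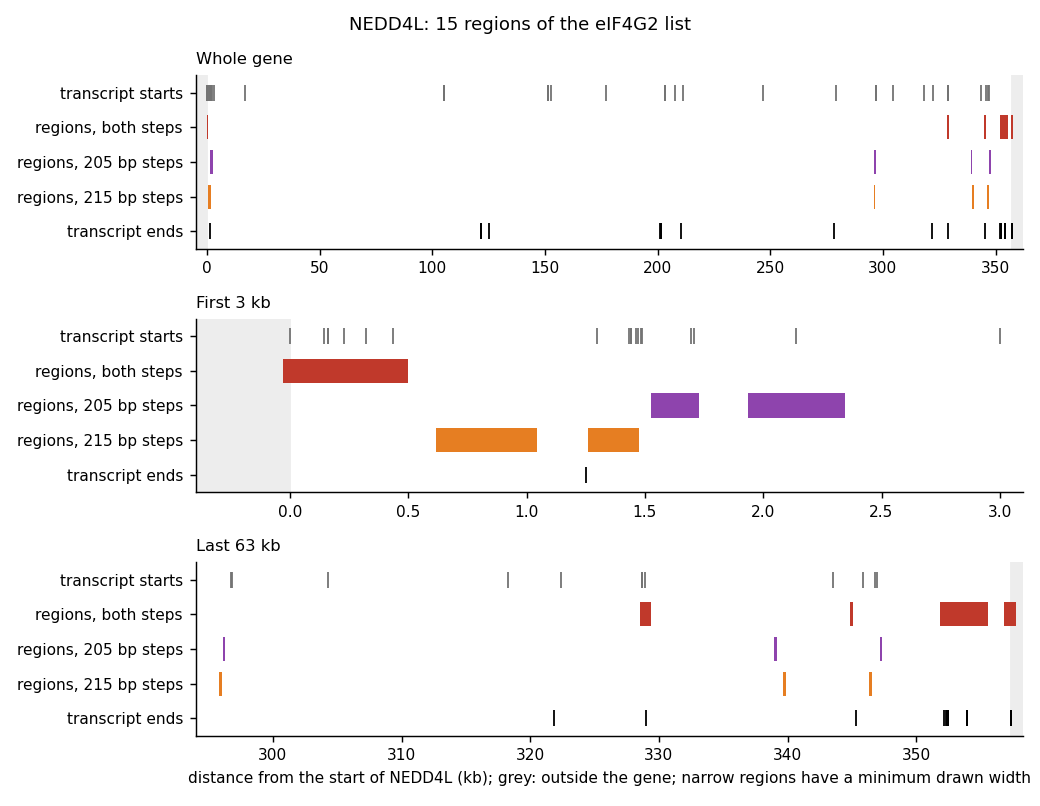
Regions of the eIF4G2 list along NEDD4L, with distance from the start of the gene in kb on the x axis, for the whole gene and for each end; rows separate regions by the step width on which their boundaries fall, and ticks mark starts and ends of the 47 annotated transcripts. Of the 15 regions 5 lie at the start and 10 in the last 61505 bp, with none in between.

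The boundaries of the NEDD4L regions fell on 2 regular steps. Of the 15, 5 began and ended at multiples of 205 bp (205 to 410 bp wide), 5 at multiples of 215 bp (215 to 430 bp wide) and 5 had 1 boundary on each (275 to 3710 bp wide). In the last group were the first region of the gene, the 850 bp region and those over the 3′ ends, and they held 6305 of the 8825 bp. A single step wide were 8 of the 15 regions. On chromosome 18 as a whole 357 of 1339 regions (26.7%) had a boundary on each step, with a median width of 435 bp. All 121 eIF4G2-list regions and all 29 scramble-list regions of chromosome 10 fell on steps of 205 bp alone. No source used here says what the steps stand for.

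Among the 162 coding genes of chromosome 18 in the eIF4G2 list, NEDD4L ranked 12th by summed width (median 2982.5 bp, highest 23185 bp) and 19th by number of regions (median 5, highest 40). It is the 8th longest of them. Relative to length it ranked 117th, with 4.20 regions per 100 kb against a median of 8.56. Of the 19 listed coding genes of this chromosome that are longer than 200 kb, 1 had more summed width than NEDD4L, and their median was 3780 bp. Its widest region was the 5th widest of the 1339 on the chromosome. In the plot of summed width against gene length NEDD4L lies among the long genes and above most of them.

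**Figure D2:**
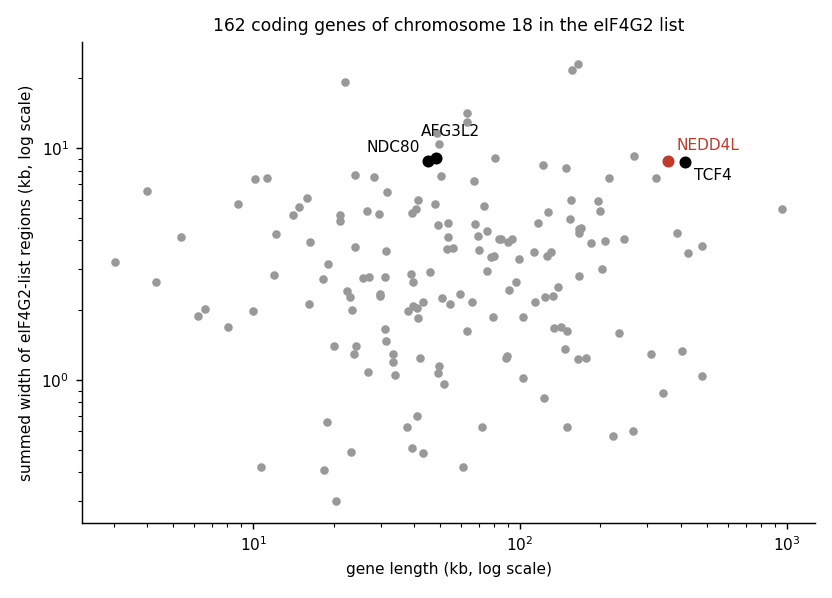
Summed width of eIF4G2-list regions (kb, log scale) against gene length (kb, log scale) for the 162 coding genes of chromosome 18 in that list, 1 point per gene. NEDD4L is at 8825 bp, with the 3 genes nearest to it in summed width in black; TCF4 is also close to it in length.

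The genes of chromosome 18 nearest to NEDD4L in summed width, all in the eIF4G2 list only, were NDC80 (24 regions, 8830 bp), a kinetochore subunit, TCF4 (14 regions, 8700 bp), a basic helix-loop-helix transcription factor, and AFG3L2 (19 regions, 9070 bp), a mitochondrial protease. NDC80 and AFG3L2 are short genes of 45.1 and 48.3 kb. TCF4, at 413.8 kb, also had a long stretch with no region, 266.3 kb or 64.4% of the gene. Among the 47 coding genes of this chromosome with 10 or more regions, the longest empty stretch between regions took from 0.5% to 82.1% of the gene (median 26.3%), and that of NEDD4L was the highest. ZNF516, at 81.5%, and PIGN, at 78.8%, were close to it. Stretches before the first region of a gene and after its last were not counted in this measure. The gene with the lowest value, 0.5%, had regions over only 0.57% of its length. Both a transcript start and a transcript end lay under regions, the same or different ones, in 27 of these 47 genes, NEDD4L among them.

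FBXL15 (ENSG00000107872) is a short gene on the plus strand of chromosome 10, of 2301 bp from 102420836 to 102423136. Its single region, at chr10:102421076-102425380, was 4305 bp wide and the widest of the 121 eIF4G2-list regions of that chromosome. It begins 240 bp into the gene and covers the remaining 2061 bp, 89.6% of FBXL15, with the ends of all 5 annotated transcripts. It then crosses 112 bp between the genes and covers 2132 bp of CUEDC2, a ubiquitin-binding protein with a CUE domain, which is encoded on the minus strand and whose 3′ end faces that of FBXL15. The region also overlaps 464 bp of 1 annotated transcript of PSD, an exchange factor for the small GTPase ARF6, on the minus strand. About as many bases thus lay over CUEDC2 as over FBXL15, and without strand the region cannot be given to either.

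The scramble list holds a region inside this one. At chr10:102423536-102424765, it was 1230 bp wide, lay over CUEDC2 alone and began 400 bp past the end of FBXL15. All of its 1230 bp are shared with the eIF4G2-list region, which begins 2460 bp earlier and ends 615 bp later. The part over FBXL15 is in the eIF4G2 list alone. A second eIF4G2-list region over CUEDC2, at chr10:102425586-102426200 (615 bp), lies 1 step of 205 bp further on. CUEDC2 itself was therefore in both lists, with 4920 bp in the eIF4G2 list and 1230 bp in the scramble list, whereas FBXL15 and PSD were in the eIF4G2 list only.

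ZRANB1 (ENSG00000019995) spans 71296 bp of the plus strand of chromosome 10, from 124916894 to 124988189 in RefSeq. Its 3 eIF4G2-list regions lay side by side at the 3′ end, at chr10:124984811-124987475 (2665 bp), chr10:124987681-124987885 (205 bp) and chr10:124988091-124990140 (2050 bp), each 205 bp or 1 step from the next. They summed to 4920 bp, of which 2969 bp lay in the gene. The first 67917 bp of ZRANB1 held no region, and from there on regions covered 87.9% of the 3379 bp up to its end. The last region holds only 99 bp of ZRANB1 and runs on beyond it.

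Every base of ZRANB1 under a region also belongs to CTBP2, a transcriptional corepressor encoded on the minus strand. The 3′ ends of both genes overlap by 3873 bp, and all 2969 bp lie in that stretch. CTBP2 had no other region in the eIF4G2 list, and its 3 regions there are those of ZRANB1. In the scramble list CTBP2 had 1 region, at chr10:124988296-124990140 (1845 bp). It ends at the same base as the last eIF4G2-list region and begins 205 bp, or 1 step, later, which puts its start 107 bp past the end of ZRANB1. The absence of ZRANB1 from the scramble list at this site thus rests on a single step. The other eIF4G2-list regions there, 2870 bp inside ZRANB1, overlapped no scramble-list region.

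**Figure D3:**
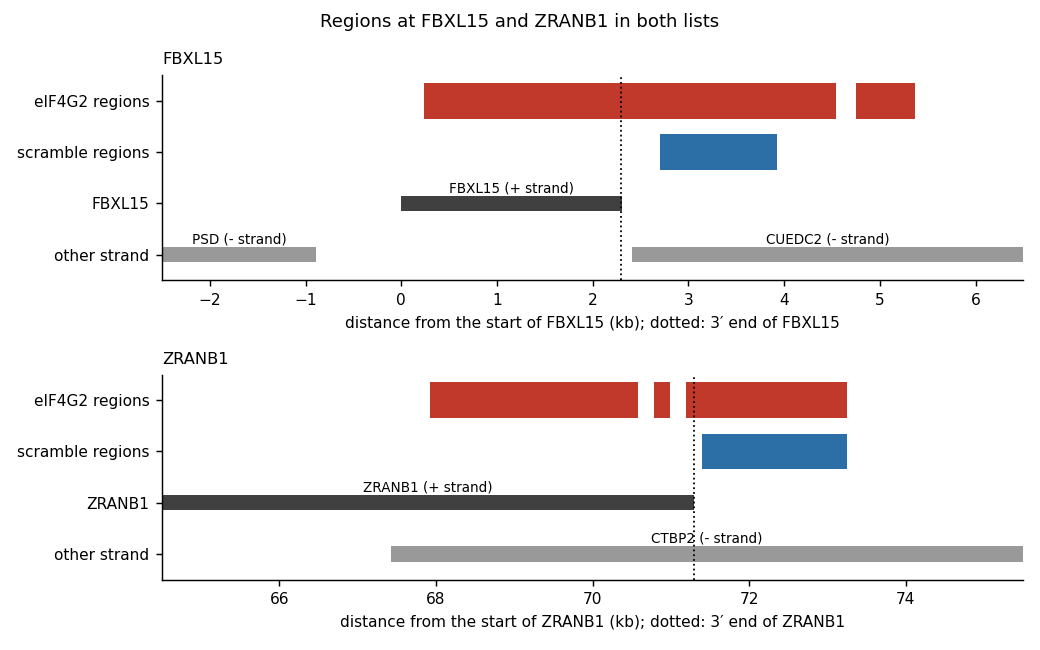
Regions at FBXL15 (top) and ZRANB1 (bottom) in the eIF4G2 list and below it the scramble list, with distance from the start of each gene in kb on the x axis and RefSeq genes by strand; the dotted line marks the 3′ end of the member. The scramble-list regions, 1230 and 1845 bp wide, begin 400 and 107 bp past those ends, inside eIF4G2-list regions of 4305 and 2050 bp.

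On chromosome 10, 9.13% of protein-coding genes (67 of 734) had a region in the eIF4G2 list, 4.09% (30 of 734) in the scramble list and 7.22% (53 of 734) in the eIF4G2 list only. Of these 53 genes, 3 had an eIF4G2-list region that overlapped a scramble-list region: FBXL15, ZRANB1 and PSD. The others of the 53 had no eIF4G2-list region that overlapped a scramble-list region. This count was made after the regions of the members had been seen.

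Among the 67 listed coding genes of chromosome 10, ZRANB1 ranked 6th and FBXL15 11th by summed width (median 2050 bp, highest 7380 bp). FBXL15 is the shortest of the 67. The genes in the eIF4G2 list only that came nearest to FBXL15 in summed width were BCCIP and DHX32, each with 3 regions and 4510 bp, and LARP4B, with 1 region of 4100 bp. BCCIP binds the tumour suppressor BRCA2, DHX32 belongs to the DEAH-box helicases, and LARP4B is an RNA-binding protein. BCCIP and DHX32 were also among the 3 such genes nearest to ZRANB1. Their widest region is 2665 bp in both cases. Whether their regions are the same ones is not given here, so they may not be separate comparisons.

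The members share a region over a 3′ end of a transcript. Most listed coding genes had one, with 132 of 162 (81.5%) on chromosome 18 and 57 of 67 (85.1%) on chromosome 10 in the eIF4G2 list. A region over a transcript start, which NEDD4L had and FBXL15 and ZRANB1 did not, was found in 61 of 162 (37.7%) and 13 of 67 (19.4%). The middle of the regions lay at a median of 92.05% of the gene from its start for NEDD4L and 99.43% for ZRANB1. For FBXL15 it lay at 104%, that is past the end of the gene. These shares use the RefSeq spans. Along the longest annotated transcript under each region they were 92.06% for NEDD4L, 99.12% for ZRANB1 and 136.45% for FBXL15. Of the 19 member regions 5 lay over a gene of the opposite strand, namely all 4 of chromosome 10 and 1 of NEDD4L. Over genes of both strands lay 24 of the 118 eIF4G2-list regions in genes of chromosome 10 (20.3%) and 193 of 1242 of chromosome 18 (15.5%).

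On chromosome 10, 2 of the 4 member regions (50%, exact 95% Clopper-Pearson interval 6.76 to 93.2%) overlapped a scramble-list region by at least 1 bp, 1 of FBXL15 and 1 of ZRANB1. Among all eIF4G2-list regions of that chromosome, those 4 included, the share was 12 of 121 (9.9%, 5.23 to 16.7%). The intervals cover counting error only and treat neighbouring regions as independent, so they may be too narrow. The 3 regions of ZRANB1 lie side by side at 1 site, and the genes were chosen from these same lists. The intervals hold no replicate error, and the shares were not tested against each other. The 15 regions of NEDD4L could not overlap any, since the scramble list has 0 regions on chromosome 18, against 1339 in the eIF4G2 list.

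The rest of the ubiquitin system was described with lists chosen when results of these data were known. Outside the members, 64 genes of these lists lie on chromosomes 4, 10 and 18; 23 of them had a region in the eIF4G2 list, 26 in the scramble list and 17 in both. Over all coding genes of these chromosomes the shares were 24.7% in the eIF4G2 list and 20.4% in the scramble list, and the lists were not tested against them. The counts differed by chromosome. On chromosome 18, 5 of 10 such genes were in the eIF4G2 list, where 60.0% of all coding genes were, and 0 in the scramble list, which has 0% of them. On chromosome 10, 0 of 20 were in the eIF4G2 list, where 9.13% of all coding genes were. In the scramble list 1 was, the adaptor gene WAC (1 region, 1845 bp), where 4.09% were. The members, chosen because they were listed, are left out of these counts but not of the shares. With them, 2 of 22 (9.1%) on chromosome 10 and 6 of 11 (54.5%) on chromosome 18 were in the eIF4G2 list. On chromosome 4, 18 of 34 were in the eIF4G2 list, where 27.3% of all coding genes were, and 25 of 34 in the scramble list, where 43.1% were.

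Of the 28 ligases of the HECT type 6 lie on these chromosomes. Beside NEDD4L, HERC3 had 1 region of 1215 bp in the eIF4G2 list and 1 of 430 bp in the scramble list, and HERC6 had 1 region (1075 bp) in the eIF4G2 list and 4 regions (2895 bp) in the scramble list. HECTD2, HERC4 and HERC5 had none. Of the 69 F-box and SCF genes 7 lie there. FBXL5, the receptor that senses iron, had 1400 bp in the eIF4G2 list and 3535 bp in the scramble list. FBXW7, which takes cyclin E and MYC to degradation, had 1445 bp in the eIF4G2 list and 2105 bp in the scramble list. BTRC, FBXW4, FBXO8 and FBXO15 had no region.

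Among the 87 deubiquitinases, 11 lie on chromosomes 4, 10 and 18. OTUD4, of the same OTU family as ZRANB1, had 4 regions (4985 bp) in the scramble list and none in the eIF4G2 list, and OTUD1 had none in either. USP14, a deubiquitinase of the proteasome, had 3 regions (3700 bp) in the eIF4G2 list only. It lies on chromosome 18, where the scramble list has 0 regions and 60.0% of coding genes were in the eIF4G2 list. USP53, on chromosome 4, had 6 regions (2905 bp) in the scramble list only. USP46 had 1340 bp in the eIF4G2 list and 1475 bp in the scramble list, and USP38 had 820 bp in the eIF4G2 list and 1935 bp in the scramble list. On the X chromosome USP9X (1620 bp) and USP11 (2000 bp) were in the eIF4G2 list only. The share of all X chromosome genes with a region is not given here, so no background stands beside them.

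Upstream in the relay, the conjugating enzyme gene UBE2D3 had 5070 bp in the eIF4G2 list and 9240 bp in the scramble list. UBE2K, another conjugating enzyme, had 4455 bp in the eIF4G2 list and 4885 bp in the scramble list, and the activating enzyme gene UBA6 had 3390 bp in the eIF4G2 list and 2545 bp in the scramble list. DCUN1D4, which helps to attach NEDD8 to cullins, had 3200 bp in the eIF4G2 list and 3805 bp in the scramble list. KLHL5, a kelch protein, had 1030 bp in the eIF4G2 list and 6775 bp in the scramble list. MIB1, a ligase for Notch ligands, had 12 regions (4315 bp) in the eIF4G2 list only. It lies on chromosome 18, where the scramble list has 0 regions. Regions that also lie over other genes count in full in these sums.

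**Figure D4:**
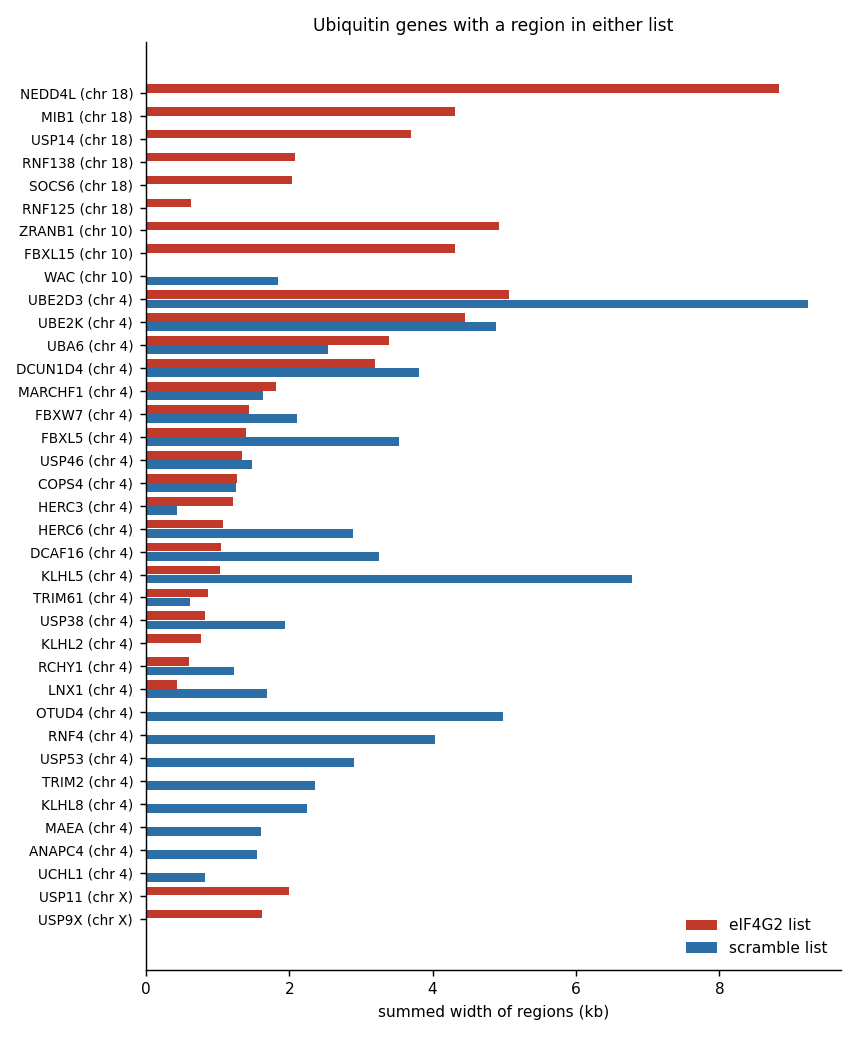
Summed width of regions (kb, x axis) for each ubiquitin gene with a region in either list, eIF4G2 list above scramble list, grouped by chromosome. Genes of chromosome 18, where the scramble list has 0 regions, have eIF4G2-list bars alone, and NEDD4L has the longest of these at 8825 bp.

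Of 27 known targets and partners of the members, 7 lie on chromosomes 4, 10 and 18. SMAD2, a substrate of NEDD4L, had 16 regions (8460 bp) in the eIF4G2 list and none in the scramble list. The same held for SMAD4 with 3 regions (2120 bp) and the inhibitor SMAD7 with 3 regions (1660 bp), all on chromosome 18. The scramble list has 0 regions on that chromosome, and 60.0% of its coding genes had a region in the eIF4G2 list. SMAD1, the BMP effector on chromosome 4, had 1 region in each list, of 1935 bp in the eIF4G2 list and 1160 bp in the scramble list. BMPR1A, TCF7L2 and LEF1 had none. SMURF1, the substrate of FBXL15, lies on none of these chromosomes and had no region.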

How the data were processed

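Total and eIF4G2-bound RNA was sequenced from IHCF cells. Per the submitters' processing notes, HISAT2 2.1.0, Trimmomatic 0.36 and bcl2fastq 2.19.0 were used, with the build GRCh38 (hg38). How regions were called, at what threshold, whether total RNA served as background and how replicates were combined is not stated in the labels. The authors deposited 1 table of regions per condition, per the file headers with 1-based positions and widths in bp and no normalization; which condition a table belongs to rests on its name, which also holds the name of MOV10, a protein no label mentions. The tables hold no count and no value per sample, so the tests planned for counts were not run.

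Each region was counted once per gene, at its full width. Genes were named as in the tables, and 726 of 733 named genes matched RefSeq GRCh38.p14 by symbol or synonym, which gave spans, lengths and gene types. Named in the text are the members, all genes under their regions, up to 6 listed genes of each gene list by summed width, and the 3 coding genes of the same chromosome and list nearest to a member in summed width on the log2 scale, of which 1 is not reported here. WAC, USP9X, USP11, the genes with the longest empty stretches and those of a list with no region fall outside this rule and were named after their values were seen. The members and lists were chosen with earlier results of these data known. Overlap counting was checked on simulated data: of 200 regions planted on the 1339 of chromosome 18, 200 were found. The planted regions sat at the places of listed ones, so shifts of 1 step between lists were not checked. Tables were handled with pandas 2.3.3 and numpy 2.4.6 in Python 3.11.15, intervals came from scipy 1.17.1 and figures from matplotlib 3.10.9.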

Additional observations from a re-analysis of the deposited data

How the results depend on the processing

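No value per sample exists in the tables used here, so leaving out a replicate was not possible. No paired analysis was possible because the tables carry no replicate numbers. Of 33 alternative values, 20 stayed within 1.5 times the reported one and 13 did not. Some of the 20 could not have moved. FBXL15 has a single wide region, and the scramble list has 0 regions on chromosome 18. Positions near the end of a gene can also hardly move 1.5 times. The FBXL15 position of 136.45% along the longest transcript, against 104% along the gene, counts among the 20. The tally is thus no measure of robustness. Merging regions up to 1000 bp apart left 8 regions for NEDD4L and 1 for ZRANB1. With regions of at least 400 bp NEDD4L kept 6, and with boundaries on both steps, an alternative chosen after seeing the data, it kept 5. Regions over the member alone left 0 for FBXL15 and 0 for ZRANB1, and 14 for NEDD4L. Clipping widths to the gene gave 2061 bp for FBXL15 and 2969 bp for ZRANB1, and the widest region alone was 3710 bp for NEDD4L and 2665 bp for ZRANB1. Counting scramble-list regions within 1000 bp of the gene, also chosen after seeing the data, gave FBXL15 1 and ZRANB1 1 in the scramble list and NEDD4L 0. All 4 member regions of chromosome 10 lay within 1000 bp of a scramble-list region, against 2 that overlapped one. The 3 of ZRANB1 lie side by side at 1 site. No share of all eIF4G2-list regions of that chromosome within 1000 bp is given here to set beside this count. The ubiquitin genes listed, X chromosome included, numbered 28 in the eIF4G2 list (21 to 31 under the alternatives) and 26 in the scramble list (21 to 27). The 28 include the 3 members, which were chosen because they were listed. Without them, 23 of the 64 genes on chromosomes 4, 10 and 18 were in the eIF4G2 list (35.9%) and 26 in the scramble list (40.6%). Over all coding genes of these chromosomes the shares were 24.7% and 20.4%. Depth is unknown.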
